A study of Mus musculus with 4 samples.

Results

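The 9 genes described here encode heavy chains of mouse MHC class I molecules: H2-K1, H2-D1, H2-Q4, H2-Q6, H2-Q7, H2-T22, H2-T23, H2-T24 and H2-M3. They were chosen by their symbols, and all 9 were among the 24346 symbols listed in each library. RNA sequencing was performed on liver of C57BL/6 mice after 3 weeks on a diet rich in fat, cholesterol and sucrose with bile salt (NASH diet), a model of steatohepatitis. In the 7KC group the NASH diet was supplemented with 7-ketocholesterol (7KC), an oxysterol, whereas the control group ate it without, and 2 libraries were made per group. The mice were male and wild type by the study's methods, and no imiquimod, the skin irritant of its later experiments, had been applied. Mice on a plain diet were not analysed here, so every value below belongs to a liver on the NASH diet.

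A class I heavy chain binds a short peptide and the light chain, beta-2-microglobulin, and carries the peptide to the cell surface, where CD8 T cells and natural killer (NK) cells read it. H2-K1 and H2-D1 are the classical heavy chains, which present peptides from the cell's own proteins on nearly every nucleated cell. The H2-Q, H2-T and H2-M genes encode nonclassical heavy chains. H2-T23 (Qa-1) presents signal peptides of other class I chains to the CD94/NKG2A receptor of NK cells, H2-M3 presents formylated peptides, the Qa-2 antigen is encoded by H2-Q6 and H2-Q7 among others, and H2-T22 is a ligand of some gamma delta T cells. Class I genes are induced by interferon through IRF factors, by NF-kappa B, and by the transactivator NLRC5, which acts at the CRE-like and Y box elements of their promoters.

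The 9 genes lie on chromosome 17 of mm10, in the GENCODE M21 annotation, where all are protein-coding. H2-K1 (33996017 to 34000347, minus strand) stands apart from H2-D1 (35262730 to 35267499, plus strand). The H2-Q genes follow H2-D1 on the plus strand, with H2-Q4 at 35379617 to 35385290, H2-Q6 at 35424850 to 35430055 and H2-Q7 at 35439155 to 35443773. The H2-T genes are on the minus strand, with H2-T24 at 36005695 to 36020560, H2-T23 at 36029773 to 36032855 and H2-T22 at 36037128 to 36042747. H2-M3 is at 37270220 to 37274484 on the plus strand.

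The promoter sequences are shown because they hold the elements through which class I genes are known to be controlled. RefSeq promoters on GRCm38.p6, the same build as mm10, from 250 bases before to 50 bases after each annotated start, were matched for 8 of the 9 genes, all but H2-T24. Of each, a stretch of 160 bases is given for the most abundant member (H2-K1), for H2-Q genes without and with a kappa B match (H2-Q4 and H2-Q6), for an H2-T gene, for H2-M3 and for H2-Q10, a relative that makes a secreted heavy chain in liver and is no member of the 9. Capitals mark matches to 5 motifs on either strand, with N for any base: GGGGATTCC (kappa B), TTTCNNTTC and TTTCNNTTT (interferon response), TGACGC (CRE-like) and CCAAT (Y box, ATTGG on the other strand).
H2-K1, chr17:34000309-34000468, minus strand: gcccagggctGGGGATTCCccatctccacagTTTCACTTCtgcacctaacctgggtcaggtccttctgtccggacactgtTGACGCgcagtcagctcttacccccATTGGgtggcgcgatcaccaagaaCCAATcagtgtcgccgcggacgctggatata
H2-Q4, chr17:35379454-35379613, plus strand: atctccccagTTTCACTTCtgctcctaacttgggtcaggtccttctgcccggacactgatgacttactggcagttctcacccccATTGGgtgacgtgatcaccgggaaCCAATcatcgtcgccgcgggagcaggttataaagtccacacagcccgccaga
H2-Q6, chr17:35424667-35424826, plus strand: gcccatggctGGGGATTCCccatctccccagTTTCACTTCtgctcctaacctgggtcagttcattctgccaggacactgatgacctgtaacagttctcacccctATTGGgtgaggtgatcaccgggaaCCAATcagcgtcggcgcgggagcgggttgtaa
H2-T23, chr17:36032676-36032835, minus strand: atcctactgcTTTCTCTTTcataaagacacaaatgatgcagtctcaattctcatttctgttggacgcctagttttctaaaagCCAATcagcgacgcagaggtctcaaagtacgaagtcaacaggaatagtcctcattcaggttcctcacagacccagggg
H2-M3, chr17:37270095-37270254, plus strand: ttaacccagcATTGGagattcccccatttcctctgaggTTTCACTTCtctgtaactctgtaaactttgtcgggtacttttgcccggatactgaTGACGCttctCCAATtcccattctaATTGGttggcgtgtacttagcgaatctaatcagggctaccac
H2-Q10, chr17:35469924-35470083, plus strand: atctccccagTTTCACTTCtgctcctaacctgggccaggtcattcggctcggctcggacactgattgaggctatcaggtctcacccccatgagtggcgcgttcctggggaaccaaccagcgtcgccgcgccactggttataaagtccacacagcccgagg

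GGGGATTCC was found in the promoters of H2-K1, H2-D1, H2-Q6 and H2-Q7, 4 of the 8, and in 0.259% of the 27025 promoters of the RefSeq table. An interferon response motif was found in 8 of 8, and in 16.7% of all promoters. It was TTTCNNTTC in 6 of them (7.56% of all promoters) and TTTCNNTTT in H2-T22 and H2-T23 (10.7%). TGACGC was matched in H2-K1, H2-D1, H2-Q4 and H2-M3 (7.5% of all promoters), and CCAAT in 8 of 8 (37.9%). The TGACGC matches of H2-K1, H2-D1 and H2-M3 were on the plus strand at -41, -101 and -46 from the annotated start. That of H2-Q4 was on the minus strand at base 31 after the start, outside the stretch shown. The promoter of H2-Q10 had TTTCNNTTC alone. These matches describe letters in a window and not binding.

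**Figure D1:**
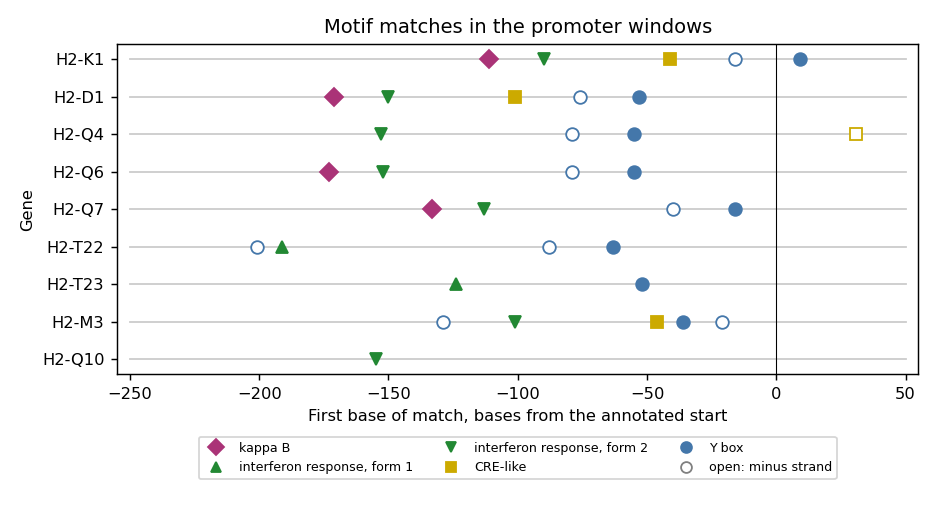
Matches of the 5 motifs in the 300-base promoters of 8 members and H2-Q10. The x axis gives bases from the annotated start, the symbols stand for the motifs, and open symbols are matches on the minus strand; interferon response form 1 is TTTCNNTTT and form 2 is TTTCNNTTC. In H2-K1, H2-D1, H2-Q6 and H2-Q7 the kappa B match lies upstream of the interferon response match.

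The promoters within the family were alike to different degrees. Over the 160-base stretches, H2-Q6 and H2-Q7 were identical at 97.5% of aligned bases and H2-K1 and H2-D1 at 88.8%. H2-Q10 was identical to H2-D1 at 78.8% and to H2-Q4 at 78.9%. H2-M3 was the most distant of those aligned, at 61.8% to 65.6% against the H2-K, H2-D and H2-Q members.

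Because the transcripts are alike too, reads can be credited to the wrong member. The reads were 75 bases long. Each 75-base window of a member's protein-coding GENCODE M21 transcripts was looked up in the transcripts of all other genes of that annotation. H2-L, H2-Q8, H2-Q9 and H2-T9, relatives with FPKM values in these libraries, are not in GENCODE M21 under these symbols. Sharing with them was therefore not counted, and the shares below can be too low. For H2-M3 none of the windows occurred elsewhere, and for H2-T24 0.459% did. H2-K1 shared 1.12% and H2-D1 6.33% of its windows with another gene. The shares were 13.1% for H2-T23, 21.1% for H2-Q6, 21.7% for H2-Q4, 22.6% for H2-Q7 and 24.6% for H2-T22. Much of this sharing was with genes outside the 9. H2-T22 shared 19.2% of its windows with H2-T10, and H2-Q4 shared 13.4% with Gm11131. Between members it was highest for H2-Q6, 14.1% of whose windows occurred in another member. How the authors' quantification divided such reads is not given in the sources used here, so values of H2-Q4, H2-Q6, H2-Q7 and H2-T22 in particular are uncertain between relatives.

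**Figure D2:**
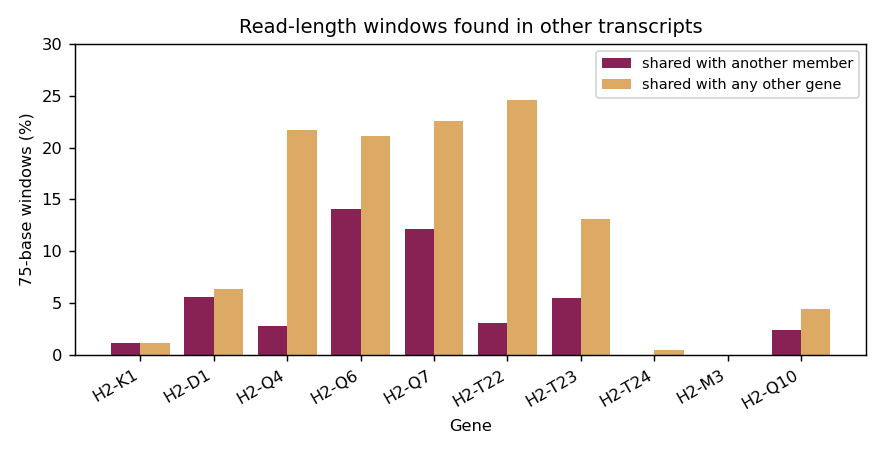
Percent of each gene's 75-base transcript windows that occur exactly in another member (purple) or in any other gene of GENCODE M21 (tan). H2-L, H2-Q8, H2-Q9 and H2-T9 are not in that annotation and were not searched. H2-M3, H2-T24 and H2-K1 are nearly free of shared windows, and H2-Q4, H2-Q6, H2-Q7 and H2-T22 share 21.1% to 24.6%.

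The level of each gene was its FPKM, and it was compared between the groups. FPKM is by definition a fragment number scaled by exon length and mapped fragments. How the authors' software scaled the libraries to each other is not given in the sources used here. The depth, estimated from the steps of the low values, was 13600000 to 17000000 reads per library. It equals the mapped reads only if the values were scaled by that total. The 10 most abundant genes took 22.3% to 23% of all FPKM in the control group and 17.9% to 19.8% in the 7KC group. Markers of leukocytes were higher in the 7KC libraries and those of hepatocytes lower: the summed FPKM of 4 pan-leukocyte genes was 72.7 and 51.5 in the control group and 123 and 171 in the 7KC group, and that of 10 hepatocyte genes was 70695 and 58483 against 50367 and 37833. In bulk liver, more cells of a type and more RNA per cell cannot be told apart. The labels do not say whether the libraries of a group came from separate animals, so p-values measure only the spread between these libraries. With 2 libraries against 2, an exact permutation test cannot go below p = 0.333 (two-sided). The p-values given are therefore from limma on log2(FPKM + 0.5), which shares variance between the 12299 genes tested, and are adjusted by the Benjamini-Hochberg method over all of them.

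Of the 9 heavy chain genes, all had a higher mean in the 7KC group, and for 8 both 7KC libraries were above both control libraries. H2-T22 was the exception. The same separation upwards was seen in 25.1% of all genes tested, and downwards in 27.4%. The median log2 change of the 9 was 0.67, beside -0.03 over all genes tested. None of the 9 passed the adjusted threshold of 0.05 in limma, which 0.48% of all genes passed upwards and 0.0244% downwards. At an unadjusted p under 0.05, 7 of the 9 were higher, beside 12.0% of all genes, and none was lower, beside 5.81%. The adjusted p of single members changed side with the scaling. After rescaling all libraries to an equal summed FPKM (TPM), the median log2 change of all genes moved to 0.16, that of the 9 members to 0.85, and H2-Q4, H2-Q6, H2-T23 and H2-M3 passed the threshold. Without control replicate 1, H2-Q6 and H2-Q7 passed it.

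The classical heavy chains were the most abundant. H2-K1 was at 1433 and 1207 FPKM in control livers and at 1690 and 1604 FPKM in the 7KC libraries. Both 7KC libraries were above both control libraries. The log2 change was 0.32 ± 0.18 (SE; adjusted p = 0.39). Leaving out control replicate 2 gave 0.20, leaving out control replicate 1 gave 0.45, and quantile normalization gave 0.54. H2-D1 was at 821 and 738 FPKM in the control group and at 1094 and 1160 FPKM in the 7KC group, with a gap between the groups wider than the gap within either. Its log2 change was 0.53 ± 0.15 (adjusted p = 0.18). The ratio of H2-K1 to H2-D1 was 1.74 and 1.64 in the control group and 1.55 and 1.38 in the 7KC group. It was thus lower in both 7KC libraries, whereas both genes together made up 83.3% to 84.8% of the FPKM of the 9 members in every library. In the ranking of all genes by FPKM, H2-K1 stood at places 59 and 72 in control livers and 42 and 43 in the 7KC libraries, and H2-D1 at 112 and 121 against 70 and 58.

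Among the H2-Q genes, H2-Q6 had the largest log2 change of the 9. It was at 13.0 and 12.7 FPKM in control livers and at 24.3 and 28.3 FPKM in the 7KC libraries, and its log2 change was 1.0 ± 0.12 (SE; adjusted p = 0.0512). The control libraries differed by far less than the groups. H2-Q4 was at 46.5 and 47.8 FPKM in the control group and at 78.6 and 84.2 FPKM in the 7KC group, with a log2 change of 0.78 ± 0.11 (adjusted p = 0.055). H2-Q7 was at 71.5 and 44.6 FPKM in control livers and at 89.2 and 95.1 FPKM in the 7KC libraries. Its 7KC libraries were close together and its control libraries far apart. The log2 change was 0.70 ± 0.23 (adjusted p = 0.226). Leaving out control replicate 1 gave 1.04 (adjusted p = 0.0398), and leaving out control replicate 2 gave 0.36. The ratio of H2-Q7 to its near-copy H2-Q6 was 5.48 in control replicate 1 and 3.36 to 3.67 in the other libraries.

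Members of a class were also summed, which removes the division of reads between those members but not that with genes outside the sum, such as Gm11131, H2-Q5 or H2-T10. H2-Q4, H2-Q6 and H2-Q7 summed had a log2 change of 0.76 (adjusted p = 0.0951). For H2-K1 with H2-D1 the log2 change was 0.41 (adjusted p = 0.33), and for H2-T22, H2-T23 and H2-T24 together it was 0.44 (adjusted p = 0.197). The sum of H2-Q6, H2-Q7, H2-Q8 and H2-Q9, added after the data were seen, was 126 and 91.1 FPKM in the control group and 157 and 168 FPKM in the 7KC group, a log2 change of 0.60 (adjusted p = 0.194). H2-Q8 had values of 5.98 and 3.65 FPKM in the control group, but at 0.00222 FPKM in 7KC replicate 1 and 8.25 FPKM in 7KC replicate 2. A value this near 0 beside such neighbours can be a failed estimate.

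The H2-T genes spanned a wide range of levels, with H2-T23 high and H2-T24 the lowest of the 9. H2-T23 was at 253 and 226 FPKM in the control group and at 335 and 314 FPKM in the 7KC group, and its log2 change was 0.44 ± 0.13 (SE; adjusted p = 0.191). H2-T24, a gene of low abundance, was at 1.85 and 2.15 FPKM in control livers and at 2.83 and 4.27 FPKM in the 7KC libraries, with a log2 change of 0.67 ± 0.21 (adjusted p = 0.207). Here the spread lay in the 7KC group. About 39.2 to 77.7 reads per library stood behind the values of H2-T24, so that counting error by itself amounts to 11.3% to 16.0% of the value. Without 7KC replicate 2 its log2 change was 0.42 and without 7KC replicate 1 it was 0.93. H2-T22 was at 18.1 and 11.8 FPKM in the control group and at 17.5 and 19.7 FPKM in the 7KC group. It was the 1 member whose groups overlapped. Its log2 change was 0.33 ± 0.22 (adjusted p = 0.466), with 0.63 without control replicate 1, 0.03 without control replicate 2 and 0.54 as TPM. H2-T22 with H2-T9 and H2-T10, its close relatives, a sum added after the data were seen, came to 89.5 and 70.3 FPKM in the control group and 108 and 101 FPKM in the 7KC group, and these sums did not overlap (log2 change 0.39, adjusted p = 0.275).

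H2-M3, the gene without shared windows in GENCODE M21, was at 4.97 and 4.45 FPKM in control livers and at 8.07 and 9.74 FPKM in the 7KC libraries. Both 7KC libraries were above both control libraries, and the groups lay further apart than the libraries of either group. The log2 change was 0.85 ± 0.14 (SE; adjusted p = 0.0704), and it lay between 0.72 and 0.98 whichever library was left out. About 75.2 to 164 reads per library stood behind these values.

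**Figure D3:**
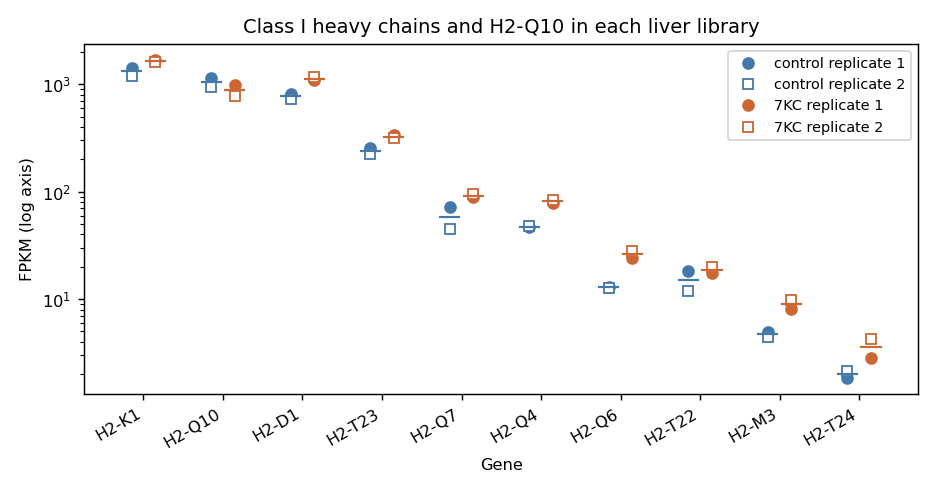
FPKM of the 9 members and H2-Q10 in each library on a log axis; filled circles are replicate 1, open squares replicate 2, and short lines the group means. Both 7KC libraries are above both control libraries for 8 members, H2-T22 overlaps, and H2-Q10 overlaps with a lower mean in the 7KC group.

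**Figure D4:**
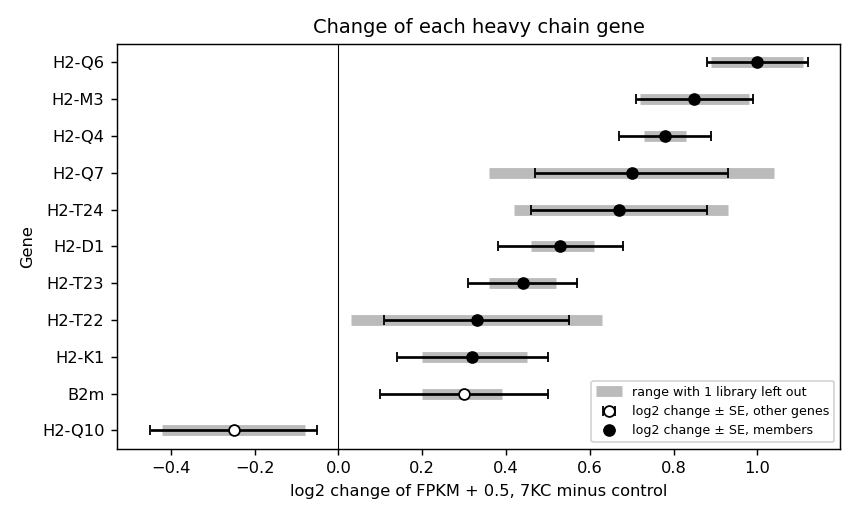
log2 change of FPKM + 0.5, 7KC minus control, with its SE, for the 9 members (filled) and for B2m and H2-Q10 (open); the grey bars span the values with 1 library left out. Changes of the members run from 0.32 to 1.0, and the grey bars are widest for H2-Q7 and H2-T22.

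By FPKM, which is per length, the order of the members was H2-K1, H2-D1, H2-T23, H2-Q7, H2-Q4, H2-Q6, H2-T22, H2-M3 and H2-T24. In the control group H2-Q7 and H2-Q4 overlapped, as did H2-Q6 and H2-T22. In the 7KC group no neighbours in this order overlapped. Summed over the 9 members, the FPKM was 2663 and 2294 in control livers and 3340 and 3320 in the 7KC libraries, 2479 ± 261 against 3330 ± 14.0 (SD, n = 2 each) and a ratio of group means of 1.34. Leaving out control replicate 1 gave a ratio of 1.45, and leaving out control replicate 2 gave 1.25. As a share of all FPKM, the sum was 0.389% and 0.342% in the control group and 0.539% and 0.596% in the 7KC group. The FPKM of all genes summed to 685028 and 671235 in the control group and to 619828 and 557138 in the 7KC group.

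H2-Q10, the liver heavy chain that is secreted, had a lower mean in the 7KC group, by an amount that depended on the scaling. It was at 1155 and 947 FPKM in control livers and at 990 and 780 FPKM in the 7KC libraries, with groups that overlapped and a log2 change of -0.25 ± 0.20 (SE; adjusted p = 0.55). This was -0.04 as TPM, -0.02 after quantile normalization, and -0.11 without the 10 most abundant genes. Leaving out control replicate 1 gave -0.11 and control replicate 2 gave -0.39, whereas leaving out 7KC replicate 1 gave -0.42 and 7KC replicate 2 gave -0.08. As a percent of the FPKM of the members and H2-Q10 together, it was 30.3 and 29.2 in the control group and 22.9 and 19.0 in the 7KC group. Albumin, the leading hepatocyte product, was at 41547 and 25202 FPKM in the control group and 26969 and 18988 FPKM in the 7KC group (log2 change -0.52, adjusted p = 0.55). Whether the lower hepatocyte markers bear on H2-Q10 was not tested.

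Of 34 further class I and class I-like heavy chains, 33 were listed and 19 passed the filter on low values. None of these 19 passed the adjusted threshold in limma, beside 0.48% of all genes upwards and 0.0244% downwards. At an unadjusted p under 0.05, 3 were higher, beside 12.0% of all genes, and none was lower, beside 5.81%. Their median log2 change was 0.18. This median was 0.34 as TPM, 0.29 without the 10 most abundant genes, 0.12 with no filter and 0.02 without control replicate 2. H2-Q5 was at 10.6 and 9.14 FPKM in the control group and 14.8 and 18.6 FPKM in the 7KC group, a log2 change of 0.72 (adjusted p = 0.109). H2-T9 had a log2 change of 0.40 (adjusted p = 0.249; 0.26 to 0.55 with 1 library left out, lowest without control replicate 2), H2-T10 of 0.37 (0.298) and H2-Bl of 0.18 (0.677). H2-T3 was listed at 0 in all libraries. H2-L, a classical heavy chain that C57BL/6 mice lack, had listed values of 77.7 and 89.0 FPKM in control livers and 62.3 and 78.3 FPKM in the 7KC libraries. With H2-L added to H2-D1, also a sum chosen after the data were seen, the log2 change was 0.47 (adjusted p = 0.215), beside 0.53 for H2-D1 alone. Some class I-like molecules that present no peptide had log2 changes near 0: Cd1d1, which presents lipids to NKT cells, at 0.09 (adjusted p = 0.683), Hfe, the iron regulator, at 0.05 (0.846), and Fcgrt, the neonatal Fc receptor, at -0.03 (0.914). The sign of Fcgrt turned under rescaling to the same sum, quantile normalization and rescaling without the 10 most abundant genes, where it was 0.18, 0.10 and 0.11. Mr1, which presents vitamin B metabolites to MAIT cells, was at 0.46 (0.323), with 0.67 without control replicate 1 and 0.26 without control replicate 2. Procr, the endothelial protein C receptor, was at 6.51 and 4.18 FPKM in the control group and 28.7 and 21.1 FPKM in the 7KC group, a log2 change of 2.13 ± 0.25 (adjusted p = 0.0512).

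The light chain and the peptide supply chain were described from a list of 14 genes, all tested, with a median log2 change of 0.65. Of these, 1 passed the adjusted threshold upwards, beside 0.48% of all genes, and none downwards, beside 0.0244%. B2m, the light chain, was at 3811 and 3579 FPKM in the control group and at 4841 and 4247 FPKM in the 7KC group, and its log2 change was 0.30 ± 0.20 (SE; adjusted p = 0.49), which was 0.57 after quantile normalization and 0.20 without 7KC replicate 1. This gene was the reference to which liver RT-qPCR values of the study were normalised. Relative to B2m, the summed FPKM of the 9 heavy chains was 0.699 and 0.641 in the control group and 0.690 and 0.782 in the 7KC group, and overlapped. Tap1, a subunit of the peptide transporter into the endoplasmic reticulum, rose from 18.3 and 19.8 FPKM to 53.4 and 44.8 FPKM (log2 change 1.34 ± 0.13, adjusted p = 0.0336). This call was lost without a variance trend (adjusted p = 0.0603), without a filter (0.119), with the replicate block (0.158), and without control replicate 2 (0.062), 7KC replicate 1 (0.146) or 7KC replicate 2 (0.158). The immunoproteasome subunits were on the other side of the threshold by a small margin. Psmb8 was at 59.8 and 53.8 FPKM against 121 and 109 FPKM (log2 change 1.01, adjusted p = 0.0512), Psmb9 at 42.3 and 41.5 FPKM against 128 and 94.8 FPKM (1.39, 0.0512), and Psmb10 had a log2 change of 1.04 (0.0523). All 3 passed as TPM (0.0101, 0.00876 and 0.0109) and after quantile normalization (0.0299, 0.0319 and 0.0368), among 5 of 16 alternatives each. For all of them both 7KC libraries were above both control libraries. Tapbp (tapasin), which holds empty class I at the transporter, had a log2 change of 0.87 (adjusted p = 0.0523) and Tap2 of 0.77 (0.0619). The general chaperones of the endoplasmic reticulum in the list were lower in both 7KC libraries: Calr at 620 and 620 FPKM against 539 and 441 FPKM (log2 change -0.35, adjusted p = 0.33), Canx at -0.28 (0.356) and Pdia3 at -0.28 (0.382). Calr, Canx and Pdia3 were named after their values were seen.

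Among 26 regulators of class I and genes of the interferon-gamma pathway, 25 were tested. Of these, 2 passed the adjusted threshold upwards, beside 0.48% of all genes, and none downwards, beside 0.0244%. The median log2 change was 0.41, or 0.26 without 7KC replicate 2. Irf8, an IRF factor of myeloid cells, rose from 10.6 and 8.16 FPKM to 26.8 and 26.2 FPKM (log2 change 1.46, adjusted p = 0.0369). The call of Irf8 was lost without a variance trend (0.0603), without a filter (0.12), with the replicate block (0.151), and without control replicate 2 (0.0543), 7KC replicate 1 (0.154) or 7KC replicate 2 (0.263). Nlrc5, the class I transactivator, was at 4.88 and 4.53 FPKM in the control group and 9.29 and 8.65 FPKM in the 7KC group (0.86 ± 0.12, SE; adjusted p = 0.0549). Its class II counterpart Ciita had a log2 change of 1.58 (0.0512). Irf1 was at 32.6 and 23.1 FPKM against 72.4 and 52.4 FPKM (1.15, 0.0965). Ifng, the cytokine itself, was scarce, at 0.408 and 0.362 FPKM in the control group and 2.99 and 1.38 FPKM in the 7KC group. It passed the filter on low values only through the 7KC group, so its test (1.53 ± 0.32, adjusted p = 0.104) is not read as support. Ifngr2, a chain of the receptor for this cytokine, had a log2 change of 0.66 (0.0621). Ifnb1 was listed at 0 in all libraries.

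Of 21 genes listed as receptors that read class I, 12 passed the filter on low values, Cd160 among them only through the 7KC group. The list was drawn broadly and also holds receptors not known to read class I. These are Pilrb1, Lilr4b and Lilrb4a, with log2 changes of 1.09, 1.54 and 1.11, all above the median of the 12. Klra2, a receptor of the Ly49 family, was the 1 of the 12 that passed the adjusted threshold upwards, beside 0.48% of all genes. It rose from 3.94 and 4.16 FPKM to 14.5 and 13.8 FPKM (log2 change 1.69 ± 0.11, adjusted p = 0.0244). It lost the call without a filter (0.107), with the replicate block (0.148) and without 7KC replicate 1 (0.146) or 7KC replicate 2 (0.142). Over all 21 with no filter, 20 had a positive and 1 a negative log2 change, both 7KC libraries were above both control libraries in 16, beside 25.1% of the genes tested, and the median log2 change was 0.58. The median of the 12 was 0.98. With a mean of at least 5 FPKM only a few of them remained, and their median was 1.44. Pirb, an inhibitory receptor of myeloid and B cells, had a log2 change of 1.44 (adjusted p = 0.0596), and Klrk1 (NKG2D), which binds class I-like ligands, of 1.10 (0.0596). The CD8 chains Cd8a and Cd8b1 were at 0.493 to 1.12 FPKM in control livers and 1.39 to 2.03 FPKM in the 7KC libraries, with log2 changes of 0.83 (0.229) and 0.81 (0.188). Cd8a had 0.48 without control replicate 2 and 1.18 without control replicate 1. Of the chains of the receptor for H2-T23, Klrd1 (CD94) had a log2 change of 0.88 (0.159) and Klrc1 (NKG2A) of 0.42 (0.513), and the libraries of Klrc1 overlapped. With 1 library left out, Klrd1 had 0.58 (without control replicate 2) to 1.18 and Klrc1 0.11 (without control replicate 2) to 0.73 (without control replicate 1), with 0.18 without 7KC replicate 2 and 0.66 without 7KC replicate 1. The T and NK cell markers were higher too, and Cd8a is in both lists. In all 11 of these markers, with no filter, both 7KC libraries were above both control libraries, beside 25.1% of the genes tested. The summed FPKM of the T and NK cell markers was 25.1 and 16.4 in the control group and 60.9 and 51.8 in the 7KC group. Their part in the values of the heavy chains was not tested.

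Class II genes, which present peptides on professional antigen-presenting cells, stand beside the class I genes as follows. Of 10 tested, 2 passed the adjusted threshold upwards, beside 0.48% of all genes, and none downwards, beside 0.0244%. The median log2 change was 1.38. H2-DMa rose from 19.6 and 17.4 FPKM to 58.9 and 65.9 FPKM (log2 change 1.73, adjusted p = 0.0244) and H2-DMb1 from 22.2 and 22 FPKM to 57.1 and 59.4 FPKM (1.38, 0.0244). Both calls were lost without a filter (0.107 each), with the replicate block (0.151 and 0.148), and without 7KC replicate 1 (0.146 each) or 7KC replicate 2 (0.148 and 0.158). These genes encode the chains of the peptide-loading catalyst of class II. H2-Aa was at 398 and 322 FPKM in the control group and at 829 and 1060 FPKM in the 7KC group (1.39, 0.057), and H2-Ab1 had a log2 change of 1.45 (0.0523). The difference in log2 change between class I and class II was not tested. Markers of monocytes and recruited macrophages had a summed FPKM of 35.4 and 18.1 in the control group and 76.8 and 122 in the 7KC group. All 7 of these markers had a positive log2 change. In 4 of them both 7KC libraries were above both control libraries, beside 25.1% of the genes tested, and in none below. The part of these cells in the class II values was not tested. The summed markers of resident Kupffer cells were 303 and 303 in the control group and 349 and 522 in the 7KC group. Of the 6 markers, 4 had a positive and 2 a negative log2 change. Both 7KC libraries were above both control libraries in 3, beside 25.1% of the genes tested: Timd4 (log2 change 0.92, adjusted p = 0.0606), Marco and Cd5l. Vsig4 was lower in both 7KC libraries (log2 change -0.41, adjusted p = 0.375), beside 27.4% of the genes tested. Without Marco and Cd5l the sums were 116 and 128 against 101 and 137 and overlapped. The summed markers of dendritic cells (8.54 and 5.54 against 13.2 and 18.0) and neutrophils (30.1 and 16.3 against 33.7 and 34.5) were above the control libraries in both 7KC libraries. Of single markers, this held for 3 of the 5 dendritic cell markers tested and 1 of the 3 neutrophil markers, beside 25.1% of the genes tested. None of these markers was below both control libraries in both 7KC libraries. The summed markers of B cells (6.68 and 2.26 against 6.41 and 6.40) and sinusoidal endothelial cells (119 and 139 against 120 and 175) overlapped. So did those of cholangiocytes (3.73 and 3.67 against 3.04 and 4.66). The sum for stellate cells was lower (191 and 194 against 141 and 170), and most of it was Dcn (140 and 147 against 101 and 124). Of the 6 stellate markers, 4 had a negative and 2 a positive log2 change. In 3 both 7KC libraries were below both control libraries, beside 27.4% of the genes tested.

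**Figure D5:**
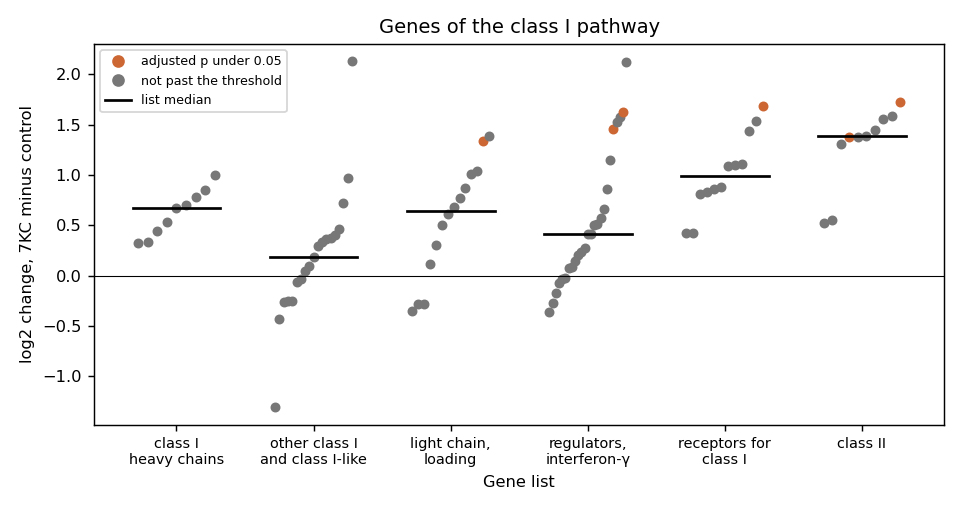
log2 change, 7KC minus control, of each tested gene of 6 lists, with the list median as a line; genes past the adjusted threshold are orange. The median was 0.67 for the 9 heavy chains, 0.18 for other class I and class I-like chains, 0.65 for the light chain and loading, 0.41 for regulators, 0.98 for the receptors past the filter (0.58 over all 21 with no filter) and 1.38 for class II.

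The genes most like the members were sought by the distance of their centred log2 values over the 4 libraries from the median profile of the 9, which was -0.19 and -0.37 in control livers and 0.27 and 0.40 in the 7KC libraries. Outside all lists the nearest were Mllt6 (root mean square distance 0.032), Ppfia4 and Ralb (0.035 each), Nckap5l (0.037) and Far1 (0.038). The members themselves lay at 0.05 (H2-D1) to 0.205 (H2-T22). With 4 libraries many genes can lie this near a profile, and the likeness is given as a description.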

How the data were processed

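Libraries of messenger RNA from liver, prepared with a stranded kit, were sequenced by the authors as single-end 75-base reads. Per the labels, reads were mapped to mm10 with TopHat2 2.1.1, Bowtie2 2.2.8 and SAMtools 0.1.18, and FPKM was calculated with Cuffdiff 2.2.1; the study's methods name other versions of the mapping tools and Cufflinks. The annotation and the treatment of multi-mapped reads are not given in the sources used here. The authors deposited 1 FPKM value per gene symbol and library. As FPKM is not a count, no count model was used. The scaling between libraries is not given in the sources used here either.

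Samples were grouped by their labels. The linear model of limma 3.58.1 (R 4.3.3) was fitted to log2(FPKM + 0.5) of all genes whose mean was 0.5 FPKM or more (eBayes with a trend; 2 residual and 3.27 prior degrees of freedom), with the group as the only term and an adjusted p under 0.05 as the threshold. Fold changes on this scale understate those of low genes. The fit was tested on simulated data. All 9 members passed the filter. The members and gene lists were chosen with earlier results of these data known. Named genes were the members, a fixed set of pathway genes and up to 3 further genes of each list with the smallest p. The 5 genes with the nearest profile were named too. Alb, H2-L, H2-Q8, Calr, Canx, Pdia3, Ifnb1, Cd160, Pilrb1, Lilr4b, Lilrb4a, Timd4, Marco, Cd5l, Vsig4 and Dcn are named besides, chosen after their values were seen. The values of 1 gene of the regulator list are not reported here.

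Depth was estimated from low FPKM values of single-transcript genes with GENCODE M21 lengths less 200 bases. At that depth 74.9% to 76.9% of low values were within 0.1 of a whole read, against a median of 11.9% to 12.7% over the depths tried. Read numbers derived from it are approximate and cover counting error only. Of the motifs planned, the kappa B and 1 interferon response motif were searched with 1 letter less. H2-L, H2-Q8, H2-Q9 and H2-T9 are symbols of the files that GENCODE M21 does not hold. Alternatives covered the pseudocount, the filter, 4 other scalings, the variance trend, the replicate block and leaving out each library.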

Additional observations from a re-analysis of the deposited data

How the results depend on the processing

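All members tested kept a positive log2 change under each pseudocount, filter, scaling, variance prior, block and left-out library. The count with 7KC libraries above the control libraries without overlap (8 as reported) was 7 with a mean of at least 5 FPKM. It was 9 as TPM and without the 10 most abundant genes, where the median over all genes also moved up, to 0.16 and 0.10. With 1 library left out it was 8 or 9, and 1 library separates from 2 more easily. The share over all genes was not counted in these settings. The count of members past the adjusted threshold (0 as reported) was 1 with a pseudocount of 1 FPKM and 1 with a mean of at least 5 FPKM, where 8 members were tested. It was 4 after rescaling to the same sum (TPM), 2 after rescaling without the 10 most abundant genes (added after seeing the data), and 0 to 2 with 1 library left out, the 2 being without control replicate 1. Over all genes, 59 were higher and 3 lower, and rescaling by the median ratio left both counts unchanged. These counts were 111 higher with a pseudocount of 1 FPKM, 0 and 1 without a filter, 398 and 7 as TPM, 237 and 5 without the 10 most abundant genes, and 39 and 1 without a variance trend. With 1 library left out they were 2 to 404 higher and 1 to 54 lower, both highest without control replicate 1, which left 1 control library assumed to vary like the other group.

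The median log2 change of the members (0.67) was 0.58 with a pseudocount of 1 FPKM, 0.62 with a mean of at least 5 FPKM, 0.85 as TPM, 0.77 after quantile normalization, 0.80 without the 10 most abundant genes and 0.46 to 0.75 with 1 library left out. The ratio of summed FPKM (1.34) was 1.55 as TPM, 1.48 without the 10 most abundant genes and 1.25 to 1.45 with 1 library left out. Rescaling by the median ratio left the median at 0.67 and the ratio at 1.34. The sign turned for Fcgrt (0.18 as TPM, 0.10 after quantile normalization, 0.11 without the 10 most abundant genes), for H2-Bl (-0.03 without 7KC replicate 1, -0.03 to 0.40 with 1 library left out) and for Hfe (-0.03 without 7KC replicate 2, -0.03 to 0.13). The cause was not tested.

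The groups share replicate numbers, but nothing in the labels says that a number marks a shared litter or day, and same-numbered libraries deviated with a correlation of -0.14. With the replicate block, 0 genes were higher and 0 lower, and 0 members passed. With the crossed pairing, added after seeing the data, 551 genes were higher, 37 lower and 3 members passed.

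With 2 libraries a group, changes of the size seen in H2-K1 or H2-T22 could not be told from the spread.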
